A study of Mus musculus with 4 samples.

Results

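The genes described here are the translation initiation factors (Eif genes) and elongation factors (Eef genes) of the mouse, with the enzymes and inhibitors that carry the same stem in their names, in Met-low and Met-high cells of the melanoma line B16-F10. Every gene whose probe on the array carried an accession of a RefSeq symbol starting with Eif or Eef and a digit was taken, apart from the Eif2ak kinases and the Eif2c (Argonaute) genes, and this gave 64 genes with a probe out of 81 such symbols. Of these, 60 had a signal well above background on both Met-low or both Met-high arrays, out of 11957 genes that met the same condition, and all 60 were above background on all 4 arrays. B16-F10 is an established line of pigmented mouse melanoma cells selected for lung metastasis. The Met-low and Met-high populations were sorted from the line by flow cytometry according to the amount of the Met receptor on the surface, with no other treatment, and were cultured for 3 days before RNA was prepared. The labels give 2 samples of each population, each hybridised to a 1-colour array, and both populations come from the same parental line and medium. The study set them side by side to ask how the gene expression of the populations differs.

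Translation initiation brings the initiator tRNA and the small ribosomal subunit to the start codon of an mRNA. The GTP-binding factor eIF2 carries the tRNA and is recharged by eIF2B, the large complex eIF3 bridges the ribosome and the mRNA, and eIF4F recognizes the cap at the 5′ end and unwinds the leader. The elongation factors then deliver aminoacyl-tRNAs and move the ribosome along the message. In tumor cells these factors are known as points where growth factor receptors, nutrient sensing and stress act on protein synthesis, through the eIF4E-binding proteins downstream of mTORC1 and through phosphorylation of eIF2.

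All values are log2 signals, which are the background-corrected intensities of a probe divided by the 75th percentile of their array, and a log2 difference is the Met-high mean minus the Met-low mean. Each gene is represented by its brightest probe, and levels are not compared between genes because probes differ in their brightness. The 75th percentile of the intensity was between 858 and 1331 on the 4 arrays, 50.01% to 53.6% of the spots were well above background and 0 were saturated. All arrays lay on 1 slide from 1 scan, the Met-low samples at its first positions and the Met-high samples at its last, so that the position on the slide cannot be told apart from the population. Precision is limited by the number of arrays, 2 in each population. The receptor used for sorting, *Met*, had log2 signals of -0.26 and -0.89 in Met-low and 1.03 and -0.43 in Met-high cells, and the populations overlapped because Met-high replicate 2 lay between the Met-low arrays (log2 difference 0.87, standard error 0.51, limma adjusted p = 0.333). The 8 melanocyte markers examined were well above background on all arrays. Of the markers of other cell types, 2 to 3 of 5 leukocyte, 1 to 2 of 4 endothelial, 1 to 2 of 5 fibroblast and 0 to 2 of 4 keratinocyte and epithelial genes were so on a given array.

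Few of the translation factors passed the test between the populations. Limma with Benjamini-Hochberg adjustment over all genes called 2 of the 60 (3.33%) higher in Met-low cells at an adjusted p under 0.05, against 3.8% of all genes tested, and 0 of the 60 higher in Met-high cells, against 1.93% of all genes tested. The genes called were *Eif4a2*, a helicase of eIF4F, and *Eif2s2*, the β subunit of eIF2. Leaving out any single array left 1 call, for *Eif4a2*. At an unadjusted p under 0.05 there were 4 translation factors on each side. The share of all genes at that threshold was not counted, so these numbers cannot be called many or few. The labels do not say whether replicates of the same number belong together. With the replicate number as a block, limma called 4 of the 60 on the Met-low side and 7 on the Met-high side. Of all 11957 genes tested, it then called 1580 and 1975. A 2-fold difference of the means was passed by 1 of the 60 on the Met-low side (5.29% of all genes tested) and by 0 on the Met-high side (2.43% of all genes tested). Because RNA of whole cultures was measured, fewer cells with a transcript and less of the transcript per cell cannot be told apart.

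The differences of the 60 genes lay between -1.24 for *Eif4a2* and 0.58 for *Eif3b*, with a median of 0.07, next to a median of 0.10 over all genes tested. The mean was higher in Met-high cells for 36 genes and in Met-low cells for 24. Over all 11957 genes tested, the corresponding counts were 7118 and 4839. With this scaling most genes tested thus leaned to the Met-high side, and a similar lean in the counts by group or list below is not particular to that group. Both Met-high arrays lay above both Met-low arrays for 21 genes (35%), where 35.7% of all genes tested did so. The opposite held for 13 genes (21.7%), next to 22.6% of all genes tested, and for 26 genes the populations overlapped. With this scaling, the shares of the translation factors were near those of all genes. With quantile normalization, 14 (23.3%) were separated on the Met-high side and 18 (30%) on the Met-low side, against 33.1% and 24.6% of all genes, and with a 75th percentile over detected probes alone, 14 (23.3%) and 21 (35%), against 23.6% and 32.3%. The standard error of a difference was between 0.15 and 0.28, with a median of 0.17. A 95% interval that stayed inside a 2-fold difference in both directions was found for 54 of the 60 genes, and for the other 6 the interval reached 2-fold. An absolute log2 difference under 0.5 was found for 53 genes and a larger one for 7. Neither the intervals nor these sizes were counted over all genes tested, so they do not say how the 60 genes compare with them. Signs near 0 depended on the scaling. With the percentile of detected probes, the median of all genes moved from 0.10 to -0.05 and that of the translation factors from 0.07 to -0.08, and 14 of the 60 changed sign. With quantile normalization the medians were 0.07 and -0.02, and 9 changed sign.

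**Figure D1:**
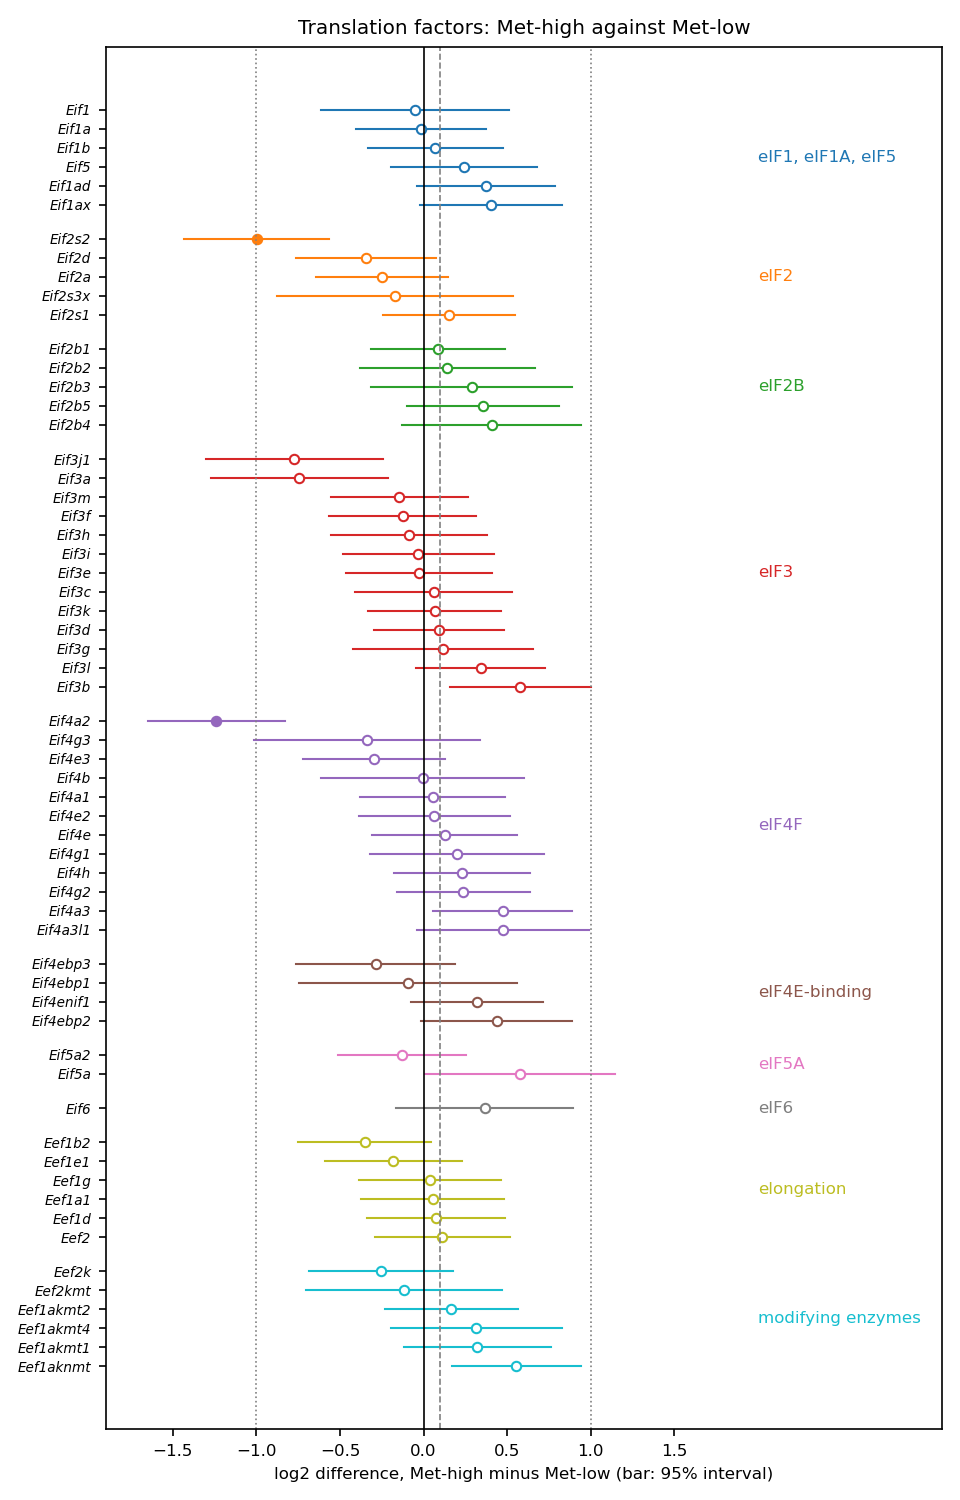
Log2 difference between Met-high and Met-low cells for each of the 60 translation factors, grouped by role, with the 95% interval from limma (2 arrays for each population). Filled points are the genes at an adjusted p under 0.05, the dashed line is the median of all genes tested (0.10) and the dotted lines mark 2-fold. Most intervals cross 0, and *Eif4a2* and *Eif2s2* lie farthest to the left.

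**Figure D2:**
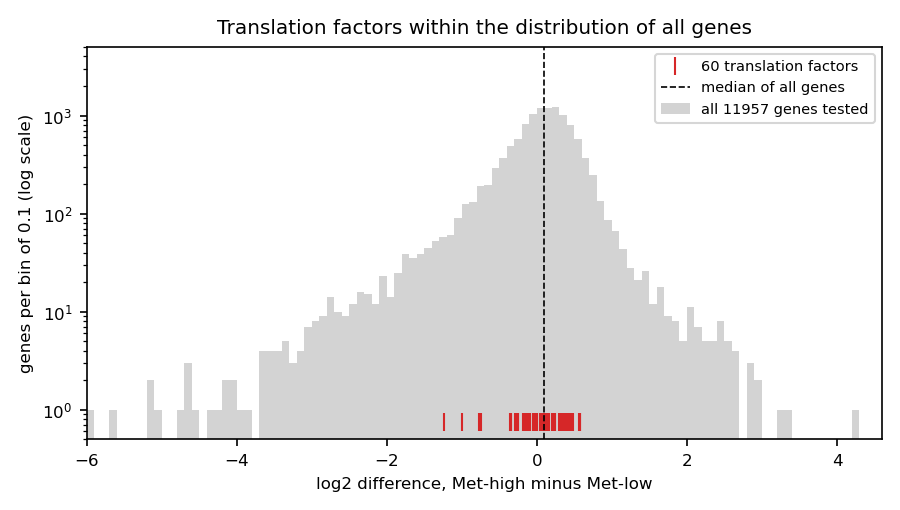
Histogram of the log2 difference between Met-high and Met-low cells over the 11957 genes tested, in bins of 0.1 on a logarithmic count axis, with a tick for each of the 60 translation factors. The ticks lie between -1.24 and 0.58, and genes beyond them in both directions are not among these 60.

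*Eif4a2* and *Eif4a1* encode near-identical helicases, which unwind the mRNA leader as the eIF4A subunit of eIF4F, and *Eif4a2* had the largest difference of the 60 genes. The log2 signal of *Eif4a2* (NM_001123038) was 3.52 and 3.69 in Met-low cells and 2.32 and 2.41 in Met-high cells. The populations were separated by more than 1 log2 unit, and replicates lay close together. The log2 difference was -1.24 (standard error 0.16, 95% interval -1.65 to -0.83, limma adjusted p = 0.021), a 2.36-fold higher mean in Met-low cells. The adjusted p was between 0.023 and 0.043 when any single array was left out, and it missed 0.05 only when dim probes were not filtered (0.121), in a range from 0.010 over the alternatives. Another probe of the gene, designed on the transcript NM_013506, gave 0.89 and 0.13 in Met-low and -0.57 and -1.31 in Met-high cells, a log2 difference of -1.45 in the same direction with a larger standard error (0.38, limma adjusted p = 0.133 over all probes, where the brightest probe had 0.041).

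*Eif4a1* (NM_144958) had log2 signals of 5.88 and 6.12 in Met-low and 6.12 and 5.996 in Met-high cells, and the populations overlapped. Its log2 difference was 0.05 with a 95% interval of -0.38 to 0.49 (limma adjusted p = 0.871), and its sign turned with quantile normalization and with the percentile of detected probes. The intervals of the helicases did not overlap, and the difference between the genes was not itself tested. The more distant helicase *Eif4a3*, a core part of the exon junction complex, had 2.57 and 2.65 in Met-low and 2.99 and 3.18 in Met-high cells (log2 difference 0.47, limma adjusted p = 0.154). Its near-identical copy *Eif4a3l1* had 3.48 and 3.72 in Met-low and 3.89 and 4.26 in Met-high cells (0.48, limma adjusted p = 0.214). Signals of this pair cannot be attributed with certainty, since such copies may share target sequence.

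The promoters of *Eif4a2* and *Eif4a1* are printed because *Eif4a2* was called and its paralogue was not, and those of *Eif2s2* and *Eif2s1*, described after them, because the same held for these subunits of eIF2. Each line holds the 250 bases before the transcription start in RefSeq (build GRCm38.p6), 5′ to 3′ on the strand of the gene. Capitals mark matches, on either strand, to the E-box (the letters CACGTG), the GC box (GGGCGG on one of the strands), the box named CCAAT, the TATA box with the letters TATAAA, the cyclic AMP response element or CRE with the letters TGACGTCA, or the binding motif of ETS proteins with the letters CCGGAAG. The regions are chr16:23107218-23107467 on the plus strand for *Eif4a2*, chr11:69672424-69672673 on the minus strand for *Eif4a1*, chr2:154892907-154893156 on the minus strand for *Eif2s2* and chr12:78861822-78862071 on the plus strand for *Eif2s1*.
Eif4a2: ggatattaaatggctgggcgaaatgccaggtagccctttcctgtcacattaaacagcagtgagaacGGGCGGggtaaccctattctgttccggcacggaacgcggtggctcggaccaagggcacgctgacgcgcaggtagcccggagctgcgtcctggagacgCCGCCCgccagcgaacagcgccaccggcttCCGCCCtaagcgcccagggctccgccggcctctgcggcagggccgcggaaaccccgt
Eif4a1: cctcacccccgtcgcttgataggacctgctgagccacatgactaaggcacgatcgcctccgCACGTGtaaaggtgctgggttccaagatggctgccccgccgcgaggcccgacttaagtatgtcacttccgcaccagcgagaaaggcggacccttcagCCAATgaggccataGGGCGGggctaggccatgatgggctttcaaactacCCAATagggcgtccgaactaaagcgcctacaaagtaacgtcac
Eif2s2: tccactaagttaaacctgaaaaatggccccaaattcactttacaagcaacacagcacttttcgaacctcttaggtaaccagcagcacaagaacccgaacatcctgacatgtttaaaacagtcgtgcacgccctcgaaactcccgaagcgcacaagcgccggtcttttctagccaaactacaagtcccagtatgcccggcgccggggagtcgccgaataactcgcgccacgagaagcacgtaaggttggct
Eif2s1: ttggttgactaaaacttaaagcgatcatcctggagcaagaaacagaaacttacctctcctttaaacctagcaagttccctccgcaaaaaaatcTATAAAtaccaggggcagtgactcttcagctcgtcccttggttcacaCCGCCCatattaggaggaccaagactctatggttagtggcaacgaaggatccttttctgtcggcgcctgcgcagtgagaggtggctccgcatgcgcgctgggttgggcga
The *Eif4a2* window had 3 GC boxes and none of the other motifs, with a GC content of 66.4%. In contrast, the *Eif4a1* window had an E-box, a GC box and 2 CCAAT boxes (58.8% GC). The *Eif2s2* window held none of the motifs searched (51.6% GC), and the *Eif2s1* window held a GC box and a TATA box (50.4% GC). A match is a run of letters and not a site of binding.

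In the eIF2 group, *Eif2s2* was the gene that differed. This gene encodes eIF2β, the subunit that contacts eIF5 and eIF2B. Its log2 signal (NM_026030) was 4.83 and 5.06 in Met-low cells and 3.88 and 4.01 in Met-high cells, and the populations did not overlap. The log2 difference was -0.999 (standard error 0.17, 95% interval -1.43 to -0.56, limma adjusted p = 0.039). The adjusted p missed 0.05 when any single array was left out (0.057 and 0.109 without replicate 1 or 2 of Met-low, 0.074 and 0.055 without replicate 1 or 2 of Met-high), when the probes of a gene were averaged (0.068) and when dim probes were not filtered (0.181). Its other probe gave 1.78 and 1.86 in Met-low and 1.06 and 1.39 in Met-high cells, a log2 difference of -0.59 (limma adjusted p = 0.172 over all probes, where the brightest probe had 0.067 and was no longer called).

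The other subunits and partners of eIF2 did not pass the test. *Eif2s1*, encoding eIF2α with the serine that stress kinases phosphorylate, had 3.96 and 4.06 in Met-low and 4.12 and 4.20 in Met-high cells. Its log2 difference was 0.15 (limma adjusted p = 0.578), while its dimmer probe gave -0.37 with overlapping arrays, and the sign also turned with quantile normalization. *Eif2s3x*, the γ subunit that binds GTP and the tRNA, overlapped between the populations with a difference of -0.17 (limma adjusted p = 0.726). *Eif2d*, which can deliver tRNA to the ribosome without eIF2, had 2.60 and 2.39 in Met-low and 2.16 and 2.14 in Met-high cells (-0.34, limma adjusted p = 0.256). *Eif2a*, an alternative factor unrelated to eIF2α, had 0.05 and 0.12 in Met-low and -0.21 and -0.11 in Met-high cells (-0.25, limma adjusted p = 0.366). Thus the mean was higher in Met-low cells for 4 of the 5 genes of this group, and for 5 of 5 with quantile normalization, while 1 passed the test.

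For all 5 subunits of eIF2B, which exchanges GDP for GTP on eIF2, the mean was higher in Met-high cells, and none passed the test. The populations did not overlap for *Eif2b4*, with 3.21 and 3.55 in Met-low and 3.62 and 3.96 in Met-high cells (log2 difference 0.41, limma adjusted p = 0.287). The same held for *Eif2b5*, the catalytic subunit, with 2.24 and 2.46 in Met-low and 2.60 and 2.82 in Met-high cells (0.35, limma adjusted p = 0.275). The median of the group was 0.29, and the common sign depended on the scaling, since *Eif2b1* turned with quantile normalization and *Eif2b1* and *Eif2b2* turned with the percentile of detected probes.

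**Figure D3:**
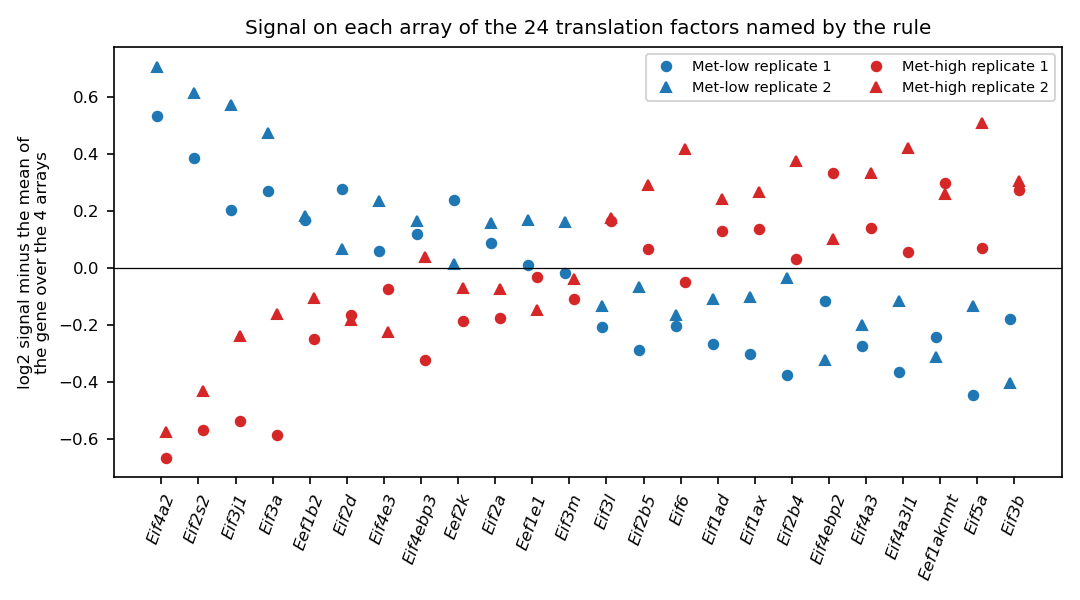
Log2 signal on each of the 4 arrays relative to the mean of the gene over the arrays, for the 2 translation factors with a call and those without overlap whose differences lay farthest from the median of all genes (0.10), 24 in all, ordered by their log2 difference. Circles and triangles are replicates 1 and 2. The populations are separated for all 24 because separation was part of the choice, and the gap was widest for *Eif4a2* and *Eif2s2*.

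The eIF3 complex, whose 13 subunits on the array all passed the filter, went both ways. A higher mean in Met-low cells was found for 7 subunits and in Met-high cells for 6, which became 11 and 2 with the percentile of detected probes, and none passed the test. The largest differences were seen on the Met-low side in *Eif3j1*, a loosely bound subunit, and *Eif3a*, the scaffold of the complex. *Eif3j1* had 1.63 and 2.00 in Met-low and 0.89 and 1.19 in Met-high cells (log2 difference -0.77, standard error 0.21, limma adjusted p = 0.101), and its other probe gave -0.94 (limma adjusted p = 0.089 over all probes). The signal may include that of its near-identical copy Eif3j2. *Eif3a* had 2.00 and 2.20 in Met-low and 1.14 and 1.57 in Met-high cells (-0.74, standard error 0.21, limma adjusted p = 0.109). On the Met-high side, *Eif3b*, which pairs with eIF3a in the core of the complex, had 4.23 and 4.01 in Met-low and 4.68 and 4.71 in Met-high cells (0.58, standard error 0.17, limma adjusted p = 0.113). *Eif3l* had 6.25 and 6.33 in Met-low and 6.62 and 6.64 in Met-high cells (0.34, limma adjusted p = 0.234). *Eif3m* had 4.16 and 4.34 in Met-low and 4.07 and 4.14 in Met-high cells (-0.14, limma adjusted p = 0.606).

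Among the factors that scan for the start codon, 4 of 6 were on average higher in Met-high cells (3 of 6 with quantile normalization or the percentile of detected probes), and none passed the test. *Eif1ax*, encoding eIF1A, had 3.60 and 3.80 in Met-low and 4.04 and 4.17 in Met-high cells (log2 difference 0.40, limma adjusted p = 0.207), while its paralogue *Eif1a* differed by -0.02 with overlapping arrays (limma adjusted p = 0.955). *Eif1ad*, a protein with an eIF1A-like domain, had 4.45 and 4.61 in Met-low and 4.85 and 4.96 in Met-high cells (0.37, limma adjusted p = 0.222). *Eif1*, which guards the choice of the start codon, differed by -0.05 and *Eif5*, the GTPase activator of eIF2, by 0.24.

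The remaining eIF4F factors and the eIF4E-binding proteins did not pass the test. The cap-binding protein *Eif4e* had 2.28 and 2.46 in Met-low and 2.40 and 2.59 in Met-high cells, with overlap (log2 difference 0.13, limma adjusted p = 0.675), and its other probe gave -0.22. *Eif4e2* differed by 0.06 (limma adjusted p = 0.849) and *Eif4e3* by -0.30 without overlap (limma adjusted p = 0.317). The scaffold *Eif4g1* differed by 0.20, *Eif4g2*, a related protein without the eIF4E site, by 0.24, and *Eif4g3* by -0.34 with a 95% interval reaching beyond 2-fold (-1.02 to 0.34). Of the 12 genes in the eIF4F group, 8 were on average higher in Met-high cells, and 5 with quantile normalization or with the percentile of detected probes. The inhibitor *Eif4ebp1*, which competes with eIF4G for eIF4E until mTORC1 phosphorylates it, had 5.11 and 5.50 in Met-low and 4.93 and 5.49 in Met-high cells. The spread between its replicates exceeded its difference of -0.09 (standard error 0.26, limma adjusted p = 0.846). *Eif4ebp2* had 3.02 and 2.81 in Met-low and 3.47 and 3.24 in Met-high cells (0.44, limma adjusted p = 0.201), and *Eif4ebp3* had 0.49 and 0.54 in Met-low and 0.05 and 0.41 in Met-high cells (-0.29, limma adjusted p = 0.385).

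*Eif5a* encodes eIF5A, which carries the modified lysine hypusine and helps the ribosome through difficult peptide bonds. The log2 signal of *Eif5a* was 5.34 and 5.65 in Met-low and 5.85 and 6.29 in Met-high cells, without overlap (log2 difference 0.58, standard error 0.22, limma adjusted p = 0.187). Its paralogue *Eif5a2* had -0.47 and -0.47 in Met-low and -0.59 and -0.61 in Met-high cells, a small difference of -0.13 in the other direction (limma adjusted p = 0.619). *Eif6*, which keeps the ribosomal subunits apart, had 4.31 and 4.35 in Met-low and 4.46 and 4.92 in Met-high cells (0.37, limma adjusted p = 0.323).

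The differences of the elongation factors were small. The 6 that passed the filter lay between -0.35 and 0.11, none passed the test, and 4 were on average higher in Met-high cells (2 with quantile normalization, 0 with the percentile of detected probes). *Eef1a1*, which delivers aminoacyl-tRNA to the ribosome, had 7.73 and 7.50 in Met-low and 7.62 and 7.72 in Met-high cells, a log2 difference of 0.05 with a 95% interval of -0.37 to 0.48. Many processed copies of this gene exist in the genome, so the source of its signal is uncertain. *Eef2*, which moves the ribosome by a codon, had 7.32 and 7.204 in Met-low and 7.31 and 7.44 in Met-high cells (0.11, 95% interval -0.29 to 0.52). Differences of these factors of 2-fold lay outside the intervals. *Eef1b2*, an exchange factor of eEF1A, had 7.07 and 7.08 in Met-low and 6.65 and 6.79 in Met-high cells (-0.35, limma adjusted p = 0.231). *Eef1e1*, a scaffold of the tRNA synthetase complex despite its name, differed by -0.18 (limma adjusted p = 0.516).

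Of the 6 enzymes that modify elongation factors, 4 were on average higher in Met-high cells under each of the scalings tried, and none passed the test. *Eef1aknmt*, which methylates eEF1A, had -0.24 and -0.31 in Met-low and 0.30 and 0.26 in Met-high cells, with replicates that lay close together (log2 difference 0.56, standard error 0.15, limma adjusted p = 0.105). *Eef2k*, the kinase that inactivates eEF2, had 0.48 and 0.25 in Met-low and 0.06 and 0.17 in Met-high cells (-0.25, limma adjusted p = 0.391).

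Among the 4 genes with a probe that did not pass the filter, *Eef1a2*, *Eif2s3y* and *Eif5b* were well above background on none of the arrays. *Eif5b*, the GTPase that joins the ribosomal subunits, had log2 signals of -6.81, -6.38, -7.11 and -7.26 from its single probe, and *Eef1a2*, the form of eEF1A of muscle and nerve, had -6.68, -7.09, -6.99 and -6.94. For genes with a single probe, an absent transcript and a probe that does not respond cannot be told apart. *Eif4e1b*, a form of eIF4E known from oocytes, was above background on Met-low replicate 2 (-3.01) and Met-high replicate 1 (-4.45) only. Of the genes inside the filter, none was near its limit on any array. The lowest signals were those of *Eif4e3*, between -1.72 and -1.26, and *Eef2kmt*, between -1.49 and -0.97, where the weakest signal counted as well above background was between -5.25 and -4.59 on the 4 arrays.

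Several probes past the filter were available for 23 of the 60 genes. Of the 25 other probes, 21 had the same sign as the brightest probe of their gene and 4 had the other, in *Eif2s1*, *Eif2s3x*, *Eif4b* and *Eif4e*. The median absolute gap between probes of a gene was 0.11 and the largest was 0.52. Of the 7 genes with an absolute difference over 0.5, *Eif4a2*, *Eif2s2* and *Eif3j1* had another probe, which gave the same direction with another size, as in *Eif2s2* with -0.999 and -0.595.

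**Figure D4:**
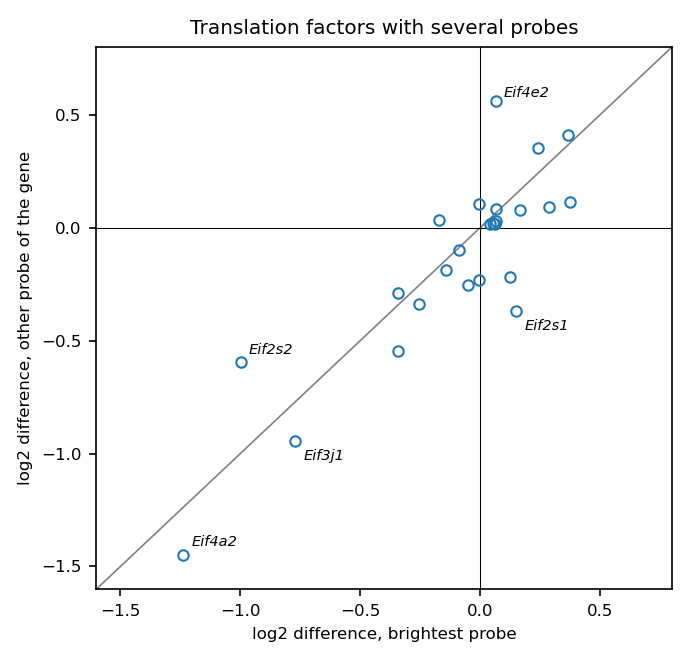
Log2 difference between Met-high and Met-low cells from another probe (vertical axis) against that from the brightest probe (horizontal axis) for the 23 translation factors with several probes past the filter, with the line of equality. *Eif4a2*, *Eif3j1* and *Eif2s2* lie on the Met-low side with both probes, and the probes of *Eif2s1* have opposite signs.

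The 250 bases before the start were available for 47 of the 60 genes and for 9633 of the genes tested. The E-box CACGTG, the sequence that Myc and MITF proteins are known to bind, was present in 13 of the 47 (27.7%), compared with 9.99% of the genes tested and 6.86% of all 27025 genes with a promoter in the table. ETS motifs were present in 25.5% (15.8% of the genes tested) and GC boxes in 74.5% (62.9%), while CCAAT was present in 34.0% (40.8%), TATAAA in 8.51% (8.27%) and the CRE in 0 of 47 (3.09%). These shares describe the promoters and not these cells. The 13 translation factors with an E-box, *Eif4a1*, *Eif4e*, *Eif4g1*, *Eif4h*, *Eif5a*, *Eif5a2*, *Eif1b*, *Eif3f*, *Eif3k*, *Eef2*, *Eef2k*, *Eef1aknmt* and *Eef1akmt4*, had a median log2 difference of 0.11, and the 34 without one had 0.07. A run of 5 or more pyrimidines from the first base was found in 3 of the 47 (6.38%) and in 5.10% of the genes tested. This rule is looser than the feature known from transcripts whose translation follows mTORC1, since either pyrimidine was taken as the first base. The run of *Eef1a1* starts with a T. These starts are printed to show the run, in capitals, with the 12 bases before the start and the 18 after it (RefSeq, GRCm38.p6). They are chr7:108934403-108934432 on the plus strand for *Eif3f*, chrX:94212634-94212663 on the minus strand for *Eif2s3x* and chr9:78481707-78481736 on the minus strand for *Eef1a1*.
Eif3f: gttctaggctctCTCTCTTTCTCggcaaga
Eif2s3x: ccgagcattttcCTTTTCTCTCCgagcaag
Eef1a1: ggctccgccctcTTCCCgagggtgggggag
All of these genes overlapped between the populations, with log2 differences of -0.13, -0.17 and 0.05. Annotated starts can differ from those used in these cells.

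The genes that act on the translation factors were examined in 7 further lists, and 4 of their 71 genes that passed the filter passed the test (5.63%), against 5.73% of all genes tested. The 4 include *Gspt2*, which passed the filter through the Met-low arrays alone. Of 7 kinases, phosphatase subunits and regulators acting on eIF2α, *Eif2ak2* (PKR, the kinase activated by double-stranded RNA) was higher in Met-low cells. It had -1.80 and -1.83 in Met-low and -2.76 and -3.01 in Met-high cells, without overlap (log2 difference -1.07, standard error 0.17, limma adjusted p = 0.031). This call was lost with normexp (0.052), with no filter (0.159) and without some of the arrays (0.074 and 0.060 without replicate 1 or 2 of Met-low, 0.075 without replicate 2 of Met-high), in a range from 0.027. *Impact*, an inhibitor of the kinase GCN2, had 1.60 and 1.93 in Met-low and 0.89 and 0.88 in Met-high cells and missed the threshold (-0.88, limma adjusted p = 0.057). The kinases *Eif2ak1*, *Eif2ak3* (PERK) and *Eif2ak4* (GCN2) differed by 0.19, -0.01 and -0.06, and none passed the test.

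Of 14 genes of mTORC1 and of kinases acting on cap binding, *Ddit4* (REDD1, a stress-induced inhibitor of mTORC1) was higher in Met-low cells. Its log2 signal was 3.33 and 3.12 in Met-low and 1.63 and 1.72 in Met-high cells (log2 difference -1.55, standard error 0.17, limma adjusted p = 0.014), and the call was lost only with no filter on dim probes (0.099), in a range from 0.007. *Mtor*, *Rptor* and *Rheb* overlapped between the populations, with differences of 0.06, -0.11 and 0.03. *Mknk2*, a kinase of eIF4E, had 5.50 and 5.34 in Met-low and 5.96 and 5.82 in Met-high cells (0.47, limma adjusted p = 0.159), and *Pdcd4*, an inhibitor of eIF4A, had -0.02 and 0.54 in Met-low and -0.57 and -0.39 in Met-high cells (-0.74, limma adjusted p = 0.135).

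None of the 5 poly(A)-binding proteins and partners passed the test, and 4 of 5 were on average higher in Met-low cells under each scaling tried. *Pabpc1*, which joins the poly(A) tail to eIF4G, was the nearest, with 6.68 and 6.75 in Met-low and 5.97 and 5.87 in Met-high cells, without overlap (log2 difference -0.79, standard error 0.16, limma adjusted p = 0.054). None of 9 other initiation factors passed either, and the smallest adjusted p was that of *Bzw1*, a mimic of eIF5 (0.48, limma adjusted p = 0.161). Among 5 release and rescue factors, *Gspt2* (eRF3b) had -2.21 and -2.09 in Met-low cells and failed the background criterion on both Met-high arrays, so that it passed the filter through the Met-low arrays alone, which favours a call. On the Met-high arrays its probe gave -6.11 and -5.23. Set against a bound, its mean in Met-low cells was 7.71-fold higher. This bound sets the Met-low mean against, on each Met-high array, the dim probe itself or the weakest signal counted as well above background, whichever was larger. It is not a strict limit, since the probe failed the criterion on Met-high replicate 2 at -5.23, where the weakest signal so counted was -5.25. The test of *Gspt2* used the measured difference of -3.53 and not the bound (limma adjusted p = 0.009, and 0.075 with no filter on dim probes). With normexp background correction the log2 difference was -1.61, which is smaller in size than the bound. The size of the difference thus depended on the background correction. Its paralogue *Gspt1* (eRF3a) overlapped, with 4.504 and 4.42 in Met-low and 4.47 and 4.64 in Met-high cells (log2 difference 0.09, limma adjusted p = 0.746).

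Of 9 enzymes of the hypusine of eIF5A and the diphthamide of eEF2, 6 were on average higher in Met-high cells under each scaling tried. *Dph1*, which starts diphthamide synthesis, passed the test with 0.87 and 0.90 in Met-low and 1.67 and 1.80 in Met-high cells (log2 difference 0.85, standard error 0.16, limma adjusted p = 0.045). The call was lost with quantile normalization (0.055), with the percentile of detected probes (0.060), with no filter (0.206) and without each array in turn (0.142 and 0.117 for replicates 1 and 2 of Met-low, 0.070 and 0.135 for replicates 1 and 2 of Met-high). *Dohh*, the hydroxylase that completes hypusine, had 3.27 and 3.67 in Met-low and 4.19 and 4.56 in Met-high cells (0.91, limma adjusted p = 0.084), and *Dhps*, which acts before it, differed by 0.37 (limma adjusted p = 0.293). None of 22 cytosolic tRNA synthetases and scaffold proteins passed the test. Their means were higher in Met-high cells for 16 of 22, but for 10 of 22 with quantile normalization or with the percentile of detected probes. The smallest adjusted p-values were those of *Vars*, with 1.78 and 1.98 in Met-low and 2.54 and 2.86 in Met-high cells (0.82, limma adjusted p = 0.074), and *Mars1*, with 2.22 and 2.15 in Met-low and 2.80 and 2.99 in Met-high cells (0.71, limma adjusted p = 0.074).

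**Figure D5:**
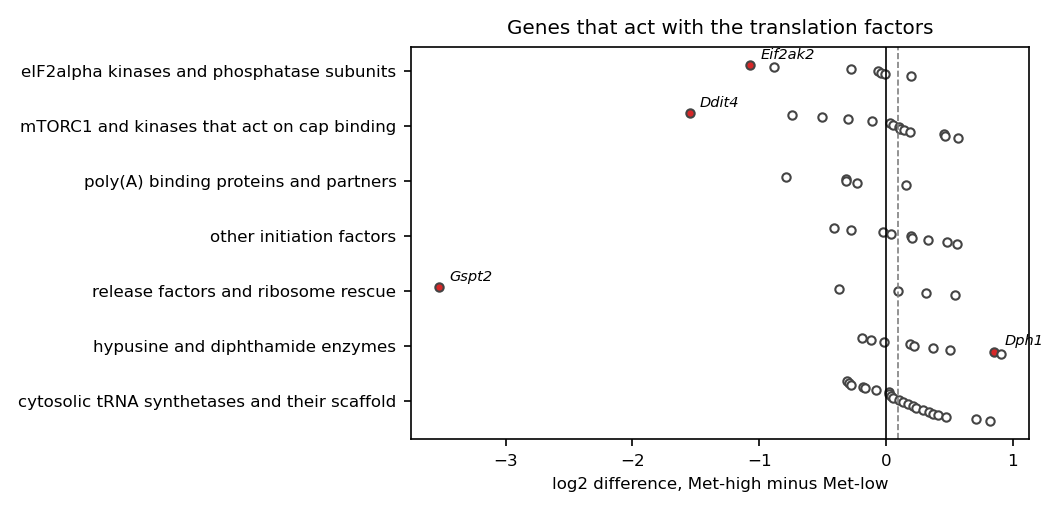
Log2 difference between Met-high and Met-low cells for each gene past the filter in 7 lists of genes that act with the translation factors, with genes at an adjusted p under 0.05 filled and named. The dashed line is the median of all genes tested (0.10), and *Gspt2* is drawn at its measured difference, which rests on Met-high signals not well above background.

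A fibroblast marker moved with the genes higher in Met-low cells. *Col1a2* had -0.97 and -0.73 in Met-low and -2.004 and -1.89 in Met-high cells (log2 difference -1.10, limma adjusted p = 0.031, lost at 0.158 with no filter on dim probes, at 0.052 without replicate 1 of Met-high and at 0.080 without replicate 2 of Met-low), and the summed signal of the 5 fibroblast markers, relative to the 75th percentile of the array, was 0.620 to 0.676 in Met-low and 0.298 to 0.312 in Met-high cells. This sum rested mainly on *Col1a2* itself and adds little from the other markers. The defining markers *Dcn*, *Lum* and *Pdgfra* were well above background on none of the arrays, and *Col1a1* did not pass the filter. The summed signals of the other lists overlapped between the populations, except those of the endothelial markers. These were 5.48 to 6.31 in Met-low and 6.72 to 8.44 in Met-high cells, and they rested mainly on *Kdr*. *Kdr* had 2.65 and 2.43 in Met-low and 3.07 and 2.73 in Met-high cells (log2 difference 0.36, limma adjusted p = 0.302). *Pecam1* overlapped, and *Cdh5* and *Tek* were well above background on none of the arrays. The part of the marker genes in the differences of the translation factors was not tested.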

How the data were processed

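Per the labels, total RNA of 2 Met-low and 2 Met-high samples of B16-F10 was labelled with Cy3 and hybridised to Agilent mouse arrays, after independent preparation of the samples according to the methods. The authors deposited the Feature Extraction output of each array, which holds a background-corrected linear intensity of each spot and flags, for example for saturated spots or for a signal well above background. They also deposited a table of log2 values, scaled to the 75th percentile per array and centred per probe on its median, which was used as an alternative. Set against the scanner values, 93.5% to 100% of its values lay within 0.01. Feature Extraction is given as version 11.0.1.1 in the file headers and as 10.7.3.1 in the submitters' processing notes.

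Intensities of 43020 spots that are not controls (0 at the floor of 0.01) were divided by the 75th percentile of the array and put on a log2 scale. Flagged spots, 207 to 232 per array, were not used, and repeated spots of a probe gave their mean. An accession of a RefSeq symbol was found for 27427 of 39429 probes (20832 genes), and the brightest probe of a gene was used. A gene was tested where more than a share of 0.5 of the unflagged spots of its probe were well above background on each Met-low or each Met-high array. The test was lmFit and eBayes of limma 3.58.1 (R 4.3.3) on 2 arrays of each population, adjusted by Benjamini-Hochberg over the 11957 genes, with a threshold of 0.05. All p-values are two-sided. An exact permutation of 2 arrays against 2 cannot give a p under 0.333 and was not used. Genes of the translation factors are named where they passed the test or 2-fold, then up to 24 by the distance of their difference from the median of all genes among those without overlap, with the paralogues of these. Other genes were named where their list or group is described, after their values were seen. In the further lists, genes that passed the test were named, or those with the smallest adjusted p. The members and lists were chosen with earlier results of these data known. The test was checked on simulated data, where it recovered most log2 changes of 2 but few log2 changes of 1. Fewer genes were changed there than were called in these data, which makes the adjustment stricter. The recovery thus does not measure how often such changes are found here. The 14 alternatives changed the background correction (normexp, offset 50, on median signals), scaling, filter, flags, probes, eBayes trend, replicate block and the arrays used, and ranges given for single genes leave out the block. With 1 array left in a population, its spread was taken from the other population. A slide block could not be fitted with 1 slide. Promoters and symbols are from RefSeq tables of GRCm38.p6, and Python 3.11.15 with pandas 2.3.3, numpy 2.4.6 and matplotlib 3.10.9 made the tables and figures.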

Additional observations from a re-analysis of the deposited data

How the results depend on the processing

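The median log2 difference of the translation factors, 0.07, was -0.0781 with the percentile of detected probes and -0.0242 with quantile normalization, and lay between 0.0170 and 0.165 when 1 array was left out. The number called higher in Met-low cells, 2, was 1 with the mean of a gene's probes, 0 with no filter on dim probes and 1 without any single array, and the number past 2-fold, 1, was 2 with the percentile of detected probes, the authors' processed values, no filter, normexp and quantile normalization, and 1 to 2 with 1 array left out. With 1 array left out, 22 to 35 genes lay higher in Met-high cells without overlap, where 46.4% to 48.9% of all genes did so. Their share was 58.3% without Met-high replicate 1 (48.9% of all genes) and 36.7% without Met-high replicate 2 (46.4%), so it depended on the array kept. In Met-low cells, 16 to 20 genes (26.7% to 33.3%) lay higher without overlap, against 30.1% to 32.8% of all genes. With the percentile of detected probes, 21 did so in Met-low cells (35%, against 32.3% of all genes). The labels pair the samples only by replicate number. Across the genes tested, the deviations of replicate 1 from the population mean correlated between the populations (0.54). The difference between replicates 1 and 2 was thus partly shared by the populations, and its source was not tested. With the replicate number as a block, limma called 7 translation factors on the Met-high side and 4 on the Met-low side, and 1975 and 1580 of all genes, in place of 231 and 454. No filter gave 0 and 7 calls over all genes, the percentile of detected probes 139 and 595, and the mean-variance trend 393 and 540. Among the 30 named genes, those that changed sign, none of them called, were *Eif1a* (0.0570 with normexp, -0.0585 to 0.0242 without single arrays), *Eif4a1* (-0.0930 with the percentile of detected probes, -0.0177 with quantile normalization, -0.0656 to 0.172 without single arrays), *Eif4e* (-0.0206 with that percentile, -0.00919 with quantile normalization and -0.0458 with the mean of probes), *Eif4e2* (-0.0817 and -0.111 with these scalings, -0.0474 to 0.177 without single arrays) and *Eif4ebp1* (-0.372 to 0.182 without single arrays). Of the values of the 30 named genes under the 14 alternatives, 388 kept their direction and side of the threshold, 16 reversed, 9 gained a call, all with the replicate block, and 7 lost one. With 2 arrays for each population, a standard error near 0.17 limits what can be told from 0.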
